A study of Mus musculus with 8 samples.

Results

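Expression of 10 genes of lipid uptake and lipid droplets (Lpl, Plin2, Plin3, Fabp4, Fabp5, Pparg, Cidec, Dgat1, Dgat2 and Hilpda) was examined in mouse bone marrow macrophages. The members were taken by gene symbol, as all probes that the platform annotation assigns to these genes, which gave 15 of the 45281 probes and 10 of 19057 named genes. RNA was measured on 8 Illumina beadchip arrays, of which 4 are labelled vav1-/- (KO 1 to 4) and 4 are labelled WT (WT 1 to 4). KO mice lack Vav1, an exchange factor that relays receptor signals to the cytoskeleton in blood cells. All mice were of the C57BL/6 strain, of both sexes, and 7 to 12 weeks old, and the labels name no treatment. The comparison asks whether the libraries labelled KO differ from those labelled WT in these genes. Nothing in the labels ties a library to an animal, and p-values therefore rest on differences among libraries, which may be technical.

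Macrophages take up fatty acids from lipoproteins and store them as neutral lipid in droplets. Lipoprotein lipase frees the fatty acids, small binding proteins carry them through the cytosol, acyltransferases join them into triglyceride, and perilipins and related proteins coat the droplet and set how fast it is broken down. Pparg encodes a nuclear receptor that senses fatty acids and drives many of these genes, and the pathway is best known in macrophages from foam cells.

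The labels and the libraries did not fully match. The only Vav1 probe read 1805 in KO 1, 1699 in KO 2, 308 in KO 3 and 288 in KO 4, against 1825 in WT 1, 1642 in WT 2, 267 in WT 3 and 384 in WT 4. The libraries labelled KO 1, KO 2, WT 3 and WT 4 therefore go against their labels. Each label holds libraries with high and with low Vav1 readings, so the comparison by label cannot show what loss of Vav1 does. Every direction given is that of the libraries labelled KO relative to the libraries labelled WT. The library labelled WT 4 also stood apart, with correlations of 0.839 to 0.901 with the other 7 libraries, which correlated with each other at 0.971 to 0.996. Fold changes of the tested member probes over all 8 libraries are therefore given beside those without WT 4, as are those of other genes where they move. Of 10 macrophage markers, 8 were read and all 8 lay above the intensity minimum of 100, with summed intensities of 26445 to 31979 in the libraries labelled KO and 24742 to 34895 in those labelled WT. Among them, Spi1, which encodes the myeloid factor PU.1, read 82.7 in WT 4. All arrays had been brought to one distribution, with a median intensity of 86.2 and a highest of 26278.

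No difference between the labels passed the test for any of the 10 genes. The minimum of 100 on at least 4 of the 8 arrays was met by 9 of the 15 probes, which cover 6 genes: Lpl, Plin2, Plin3, Fabp5, Pparg and Hilpda. Of these 9 probes, 0 passed at an adjusted p under 0.05 in limma, as did 0 of the 13479 probes tested (0%), and 0 of the 9 had an unadjusted p under 0.05, against 44 of 13479 (0.326%). The 2 labels overlapped for all 9 probes, while 148 of the 13479 probes (1.1%) had no overlap. For 6 of the 9 probes the log2 fold change was above 0 and for 3 below it. Their median was 0.07, beside -0.005 over all tested probes. The adjusted p ran from 0.795 to 0.899.

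**Figure D1:**
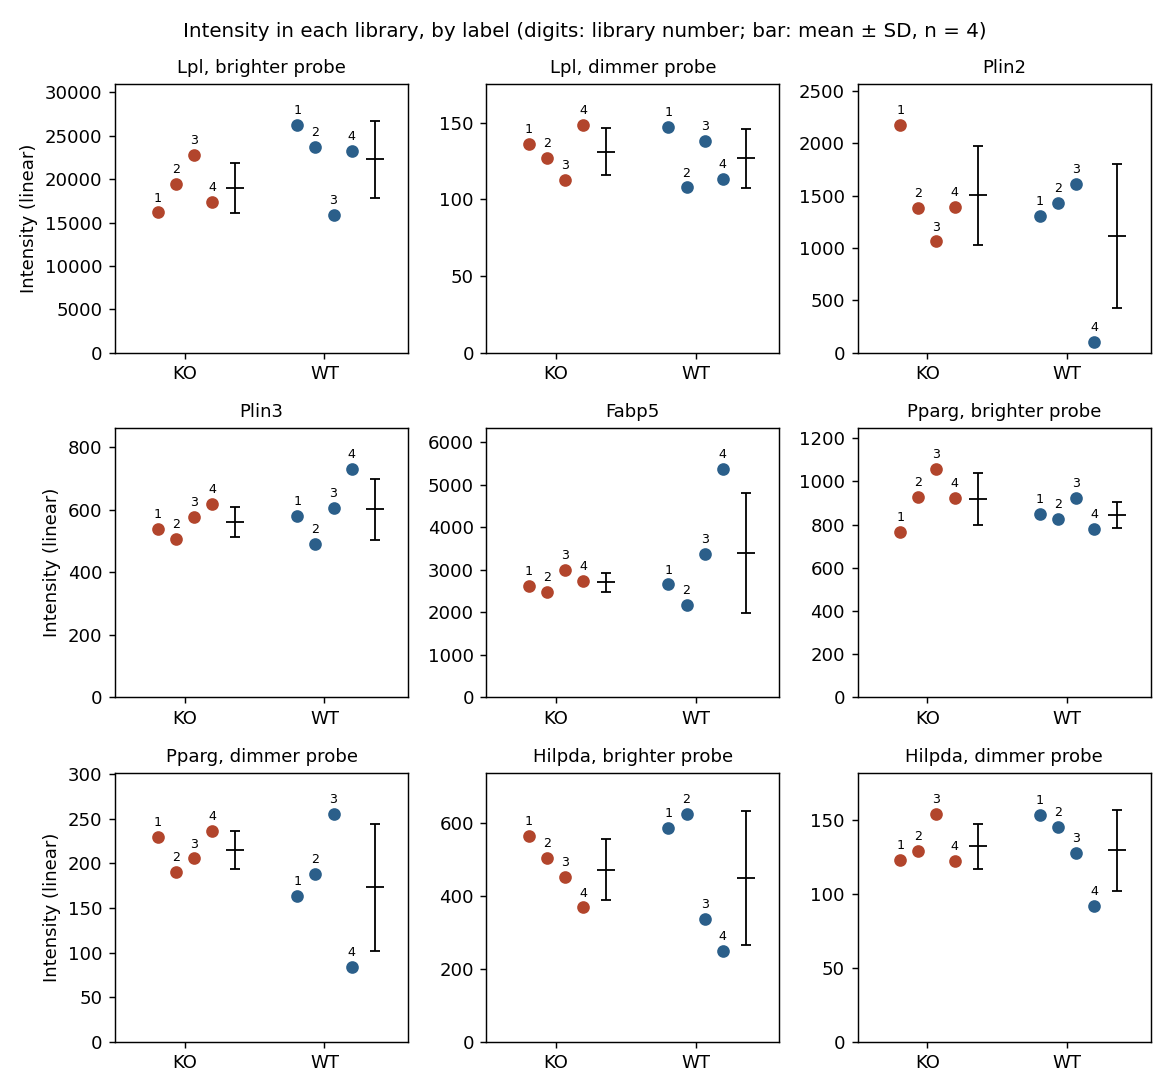
Intensity (linear scale, axes from 0) of the 9 probes above the minimum in each library, with libraries labelled KO left of those labelled WT. Digits give the library number and bars the mean ± SD (n = 4 each). The labels overlap in every panel, and WT 4 lies far below the other libraries for Plin2 (102) and above them for Fabp5 (5364).

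Lpl, which encodes the lipase that hydrolyses triglyceride in lipoproteins, was among the highest signals on the arrays. Its main probe read 16173, 19478, 22800 and 17405 in KO 1 to KO 4, against 26278, 23681, 15892 and 23269 in WT 1 to WT 4. The WT 1 value is the highest intensity that the common distribution contains, so it cannot show a higher level. The probe ranked between 1 and 31 on the 8 arrays, counted from the highest intensity. The means were 18964 ± 2898 in the libraries labelled KO and 22280 ± 4462 in those labelled WT (SD, n = 4 each). limma put the log2 fold change at -0.22 ± 0.18 (SE; adjusted p = 0.795), with a 95% interval of -0.64 to 0.20. WT 1, WT 2 and WT 4 were above all 4 KO libraries, but WT 3 was the lowest of all 8. Without WT 4 the value was -0.19. A second Lpl probe, designed on another transcript record, lay between 108 and 149 in all libraries. Its log2 fold change was 0.07 ± 0.17 (SE), and 0.006 ± 0.16 (SE) without WT 4. The log2 values of the 2 probes correlated at -0.45 over 8 libraries and at -0.39 over the 7 without WT 4 (Pearson). The probes did not rank the libraries alike.

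Of the binding proteins, Fabp5 was measured well above the minimum and Fabp4 was not. Fabp5, the epidermal-type fatty acid binding protein also made by macrophages, read 2613, 2473, 2984 and 2738 in KO 1 to KO 4, against 2652, 2171, 3371 and 5364 in WT 1 to WT 4. WT 4 was the highest, and the KO libraries lay within the range of the other WT libraries. The means were 2702 ± 217 in the libraries labelled KO and 3390 ± 1405 in those labelled WT (SD, n = 4 each). limma put the log2 fold change at -0.25 ± 0.25 (SE; adjusted p = 0.795). Without WT 4 the fold change was 0.005, with its sign turned. A second Fabp5 probe stayed at 75.7 to 97.5. Fabp4, the adipocyte-type binding protein and a common marker of lipid-laden macrophages, read 82.5, 75.5, 79.9 and 90.8 in KO 1 to KO 4, against 81.6, 85.5, 82.3 and 90.3 in WT 1 to WT 4. These values surround the array median of 86.2, so no Fabp4 signal could be told from that level.

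Pparg was read by 3 probes at different strengths. The strongest gave 766, 930, 1057 and 922 in KO 1 to KO 4, against 848, 827, 923 and 782 in WT 1 to WT 4. KO 1 was the lowest and KO 3 the highest of all 8, so the spread within the KO libraries covered the WT libraries. The means were 919 ± 119 in the libraries labelled KO and 845 ± 58.9 in those labelled WT (SD, n = 4 each). In limma this was a log2 fold change of 0.12 ± 0.13 (SE; adjusted p = 0.795), and of 0.08 ± 0.12 (SE) without WT 4. The second probe gave 229, 191, 206 and 236 in KO 1 to KO 4, against 164, 188, 256 and 84.3 in WT 1 to WT 4. Its log2 fold change of 0.50 ± 0.35 (SE; adjusted p = 0.795 in limma) shrank to 0.12 ± 0.17 (SE) without WT 4, the lowest library. The last Pparg probe stayed at 76.9 to 89.1. The first 2 probes correlated at 0.44 over 8 libraries and at 0.11 over the 7 without WT 4.

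Genes of the last step of triglyceride synthesis were near the array median. Dgat2 and Dgat1 were read by 1 probe each. Dgat1, an acyltransferase of the endoplasmic reticulum, read 91.6, 102, 103 and 99.1 in KO 1 to KO 4, against 87.1, 92.8, 95.8 and 90.8 in WT 1 to WT 4. KO 2, KO 3 and KO 4 were above all 4 WT libraries and KO 1 was not. In a fit with no intensity minimum, limma gave it a log2 fold change of 0.14 ± 0.07 (SE; adjusted p = 0.903). Dgat2, an unrelated enzyme for the same reaction, read 79.7 to 87.0 in the libraries labelled KO and 77.1 to 87.9 in those labelled WT, with a log2 fold change of 0.04. The droplet-fusing protein gene Cidec read 76.9 to 80.8 in the libraries labelled KO and 76.6 to 91.1 in those labelled WT, with a log2 fold change of -0.11. All 6 probes under the minimum lay between 75.5 and 103, and in that fit of 45281 probes 0 of the 6 passed, with 0 probes passing in all. Of the 6, 0 separated the labels without overlap, against 938 of 45281 probes (2.07%). Their adjusted p was 0.903 to 0.920, and the lowest unadjusted p was 0.0632, for Dgat1.

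**Figure D2:**
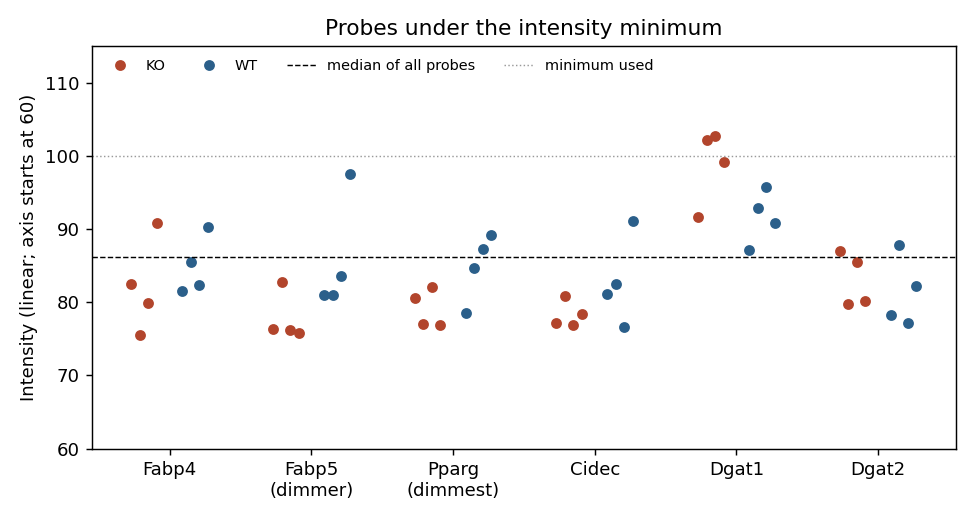
Intensity (linear scale, axis from 60) of the 6 probes under the minimum, with libraries labelled KO left of those labelled WT in each pair. The dashed line is the median of all probes (86.2) and the dotted line the minimum of 100, and only 2 Dgat1 values, KO 2 and KO 3, lie above the minimum.

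Of the droplet coat genes, Plin2 carried the widest spread of all members. Plin2, or adipophilin, is the main droplet coat protein of macrophages. Its probe read 2180, 1382, 1063 and 1390 in KO 1 to KO 4, against 1310, 1433, 1615 and 102 in WT 1 to WT 4. WT 4 was near the array median, and the other WT libraries lay between KO 3 and KO 1. The means were 1504 ± 476 in the libraries labelled KO and 1115 ± 687 in those labelled WT (SD, n = 4 each). Its log2 fold change in limma was 1.04 ± 0.87 (SE; adjusted p = 0.795), with a 95% interval of -0.92 to 3.00. Without WT 4 it was 0.004 ± 0.21 (SE), with an interval of -0.47 to 0.48. Bulk arrays cannot tell fewer cells that carry a transcript from less transcript per cell.

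Plin3, a coat protein that also occurs free in the cytosol, read 538, 506, 577 and 618 in KO 1 to KO 4, against 579, 491, 604 and 730 in WT 1 to WT 4. WT 4 was the highest library and WT 2 the lowest. In limma its log2 fold change was -0.095 ± 0.15 (SE; adjusted p = 0.814), and 0.007 without WT 4.

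Hilpda encodes a small, hypoxia-induced droplet protein that inhibits adipose triglyceride lipase. Its stronger probe read 564, 505, 454 and 369 in KO 1 to KO 4, against 587, 627, 338 and 251 in WT 1 to WT 4. Under both labels the libraries numbered 1 and 2, at 505 to 627, were above those numbered 3 and 4, at 251 to 454. The same division of the libraries without overlap occurred for 2 of the 9 member probes, Hilpda and, in the other direction, Fabp5, and for 931 of the 13479 tested probes (6.91%). The Vav1 probe also divided them so, at 1642 to 1825 in numbers 1 and 2 and 267 to 384 in numbers 3 and 4. Library number and Vav1 reading therefore cannot be told apart over the 8 libraries. The means of Hilpda were 473 ± 82.8 in the libraries labelled KO and 451 ± 185 in those labelled WT (SD, n = 4 each). By limma the log2 fold change was 0.17 ± 0.31 (SE; adjusted p = 0.838), and -0.097 ± 0.23 (SE) without WT 4. The weaker probe read 123, 129, 155 and 122 in KO 1 to KO 4, against 154, 145, 128 and 91.8 in WT 1 to WT 4. It gave a log2 fold change of 0.07, and -0.13 without WT 4. The 2 probes correlated at 0.78 over 8 libraries and at 0.46 over the 7 without WT 4.

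Plin2 and Hilpda had the widest range over the 8 libraries among the strongest probes of the 6 measured genes, 21.4-fold and 2.50-fold from the lowest to the highest library, and their promoters are shown for that reason. The Plin2 ratio is against the WT 4 reading near the array median, and so has no exact size. The sequences are from RefSeq, build GRCm38.p6, and run from 250 bases before to 50 bases after the annotated start. Plin2 lies at chr4:86670010-86670309 on the minus strand and the second of 2 annotated Hilpda starts at chr6:29272376-29272675 on the plus strand. Capitals mark ACGTG, a form of the hypoxia response core, the nuclear receptor core AGGTCA and the GC box GGGCGG, each searched on both strands. The other form of the hypoxia response core, GCGTG, was not searched and is not marked, though it occurs in the printed Hilpda window. Counts of ACGTG therefore do not cover every hypoxia response core.
Plin2: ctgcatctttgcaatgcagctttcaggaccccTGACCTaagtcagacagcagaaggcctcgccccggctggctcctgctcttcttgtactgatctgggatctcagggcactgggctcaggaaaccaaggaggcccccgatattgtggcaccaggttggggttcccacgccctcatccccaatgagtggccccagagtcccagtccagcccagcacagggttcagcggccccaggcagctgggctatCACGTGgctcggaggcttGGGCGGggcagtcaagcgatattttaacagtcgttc
Hilpda: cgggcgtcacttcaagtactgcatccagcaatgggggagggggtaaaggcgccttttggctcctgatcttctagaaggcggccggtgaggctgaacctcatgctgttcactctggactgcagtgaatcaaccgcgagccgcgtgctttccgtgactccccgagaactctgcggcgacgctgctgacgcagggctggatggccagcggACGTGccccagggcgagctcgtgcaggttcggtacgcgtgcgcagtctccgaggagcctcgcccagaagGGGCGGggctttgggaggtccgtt

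The Plin2 window held ACGTG once on each strand, both within CACGTG at bases 247 to 252, a stretch that reads the same on both strands. It also held 1 nuclear receptor core on the minus strand at bases 33 to 38. The Hilpda window held 1 ACGTG at bases 208 to 212, and the window of its other annotated start, which overlaps this one, held 0. Each of the printed windows held 1 GC box. Among all 32851 promoter windows of the same length, 19.6% held ACGTG, 16.3% the nuclear receptor core and 35.7% the GC box. The nuclear receptor core also occurred once in each of 2 of the 3 Pparg windows, and in neither Cidec window nor that of Plin3. The direct repeat of that core with a single base between them, the usual site of PPAR dimers, was in 13 of all windows and in 0 of the 9 windows of the 5 members matched (Plin2, Plin3, Pparg, Cidec and Hilpda). A match of letters describes the sequence and is no evidence of binding.

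**Figure D3:**
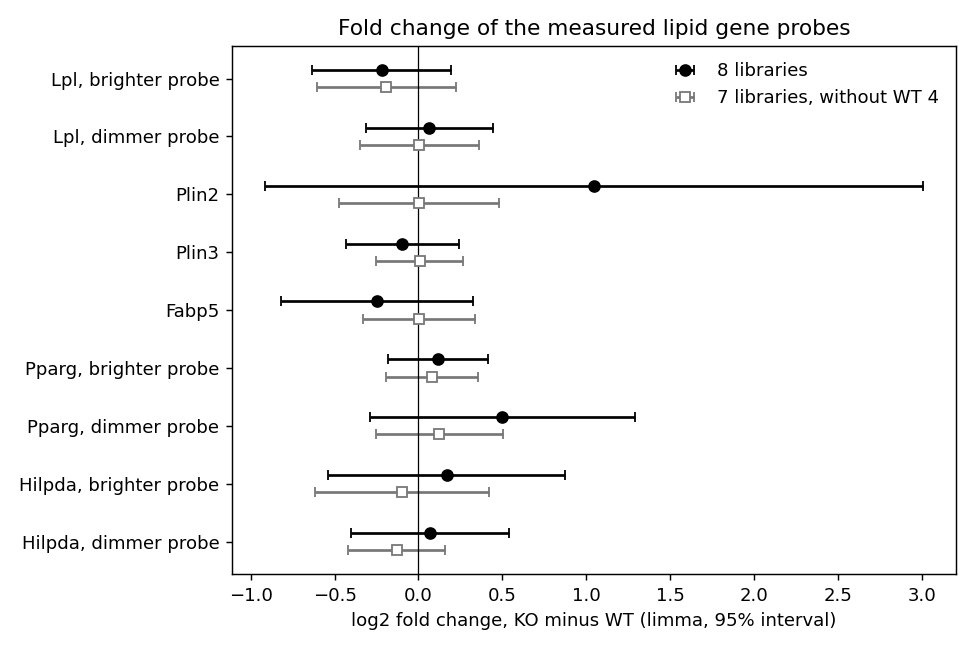
Log2 fold change (libraries labelled KO minus those labelled WT) of the 9 probes above the minimum with its 95% interval, over 8 libraries (filled circles) and without WT 4 (open squares). Every interval includes 0, and that of Plin2 narrows from between -0.92 and 3.00 to between -0.47 and 0.48 without WT 4.

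Without WT 4, the intervals of all 9 probes were narrower. The log2 fold changes then ran from -0.19 for Lpl to 0.12 for the second Pparg probe, with a median of 0.005, and 0 of 13479 probes passed (0%). The 95% intervals of the 9 probes reached from -0.62 to 0.50, so a difference between the labels beyond 0.652-fold or 1.42-fold lay outside each of them. The upper bound is that of the second Pparg probe, and for weak probes like it the offset used understates fold changes. Of the 9 directions 4 turned, those of Plin3, Fabp5 and both Hilpda probes. This fit sets 4 libraries labelled KO against 3 labelled WT. Among them KO 1, KO 2 and WT 3 go against their labels, so these intervals set no bound on an effect of Vav1 loss. When the 4 libraries that go against their labels were left out, KO 3 and KO 4 remained against WT 1 and WT 2. In that fit, chosen after the data were seen, 69 of 13479 probes passed (0.512%) and 0 of the 9 member probes did. The strongest member value was that of Hilpda, at a log2 fold change of -0.60 ± 0.17 (SE; adjusted p = 0.390 in limma). Its unadjusted p of 0.00899 was the only one of the 9 under 0.05, where 5.88% of all probes were. In those 4 libraries the label and the library number cannot be told apart.

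WT 4 moved the members in both directions. It was the lowest of the 8 libraries for 4 of the 9 probes (Plin2, the second Pparg probe and both Hilpda probes) and the highest for 2 (Fabp5 and Plin3). On the log2 scale its difference from the mean of the other 7 libraries was -4.17 for Plin2, a larger distance than for 99.9% of the tested probes. The differences were -1.58 for the second Pparg probe, -1.005 for Hilpda and 1.001 for Fabp5, while Lpl was at 0.23 and the strongest Pparg probe at -0.20. The WT 4 readings of Plin2 and of the second Pparg probe, 102 and 84.3, were near the array median of 86.2, that of Plin2 just above the minimum of 100. Whether these readings stood above background was not tested, so these 2 differences give no exact size. Distances of more than 2-fold occurred for 4 of the 9 probes and for 19.4% of all tested probes. Over the 7 other libraries the highest and lowest values differed by 1.26-fold for Plin3, 1.38-fold for Pparg, 1.55-fold for Fabp5, 1.65-fold for Lpl, 1.86-fold for Hilpda and 2.05-fold for Plin2. The median over the 9 probes was 1.55-fold, beside 1.30-fold over all tested probes.

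**Figure D4:**
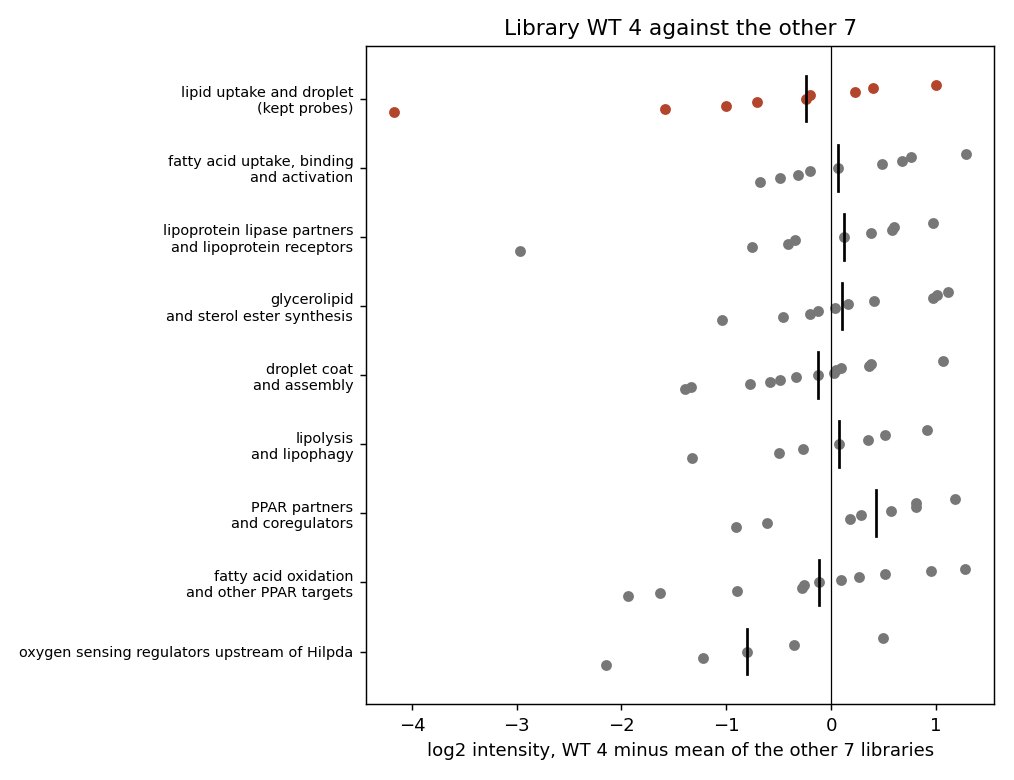
Log2 intensity of WT 4 minus the mean of the other 7 libraries, for the 9 member probes (red) and the measured genes of 8 related lists (grey), with the median of each as a black bar. Plin2 is the leftmost point at -4.17, and points lie on both sides of 0 in every list.

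The genes that followed each member most closely over the libraries changed once WT 4 was left out. Over 8 libraries Plin2 was most like Hk3 (Pearson r = 0.993), Pprc1 and H2ac12 (0.992 each), all of which were lowest in WT 4. Over 7 libraries it was most like Samd9l (0.970), Polr3c (0.965) and Mob1a (0.943). Hilpda was most like Micall2 (0.981), Uck2 (0.972) and Psd4 (0.971) over 8 libraries, and Rnf19a (0.996), the glucose transporter gene Slc2a3 (0.992) and St3gal5 (0.986) over 7. Lpl was most like BC031181 (0.961), Snrnp25 (0.95) and Mtres1 (0.940) over 8 libraries, and Tmem154 (0.990), BC031181 (0.983) and Rpl21 (0.983) over 7. Fabp5 was most like Ddx11 (0.994), Setd1b (0.987) and Pfn2 (0.983) over 8 libraries, and Wrap53 (0.985), Gm26588 (0.981) and Ifi205 (0.975) over 7. For Plin3 these were Emc2 (0.981), Fmr1 (0.975) and Gmfb (0.975), and over 7 libraries Gmfb (0.973), Srp68 (0.969) and Hps4 (0.969). For Pparg they were Cenpv (0.961), Lyzl4 (0.931) and Preb (0.921), and over 7 libraries Gsk3b (0.974), Gm5150 (0.973) and Sesn1 (0.973). These are the highest among 7982 measured genes over few libraries that share the same arrays, and are given as a description. Among the members themselves, Fabp5 and Plin3 ran together (0.917 over 8 libraries, 0.810 over 7), and both ran against Hilpda (-0.902 and -0.889 over 8 libraries, -0.803 and -0.753 over 7). Plin2 gave values that did not hold without WT 4. With Fabp5 it was at -0.873 over 8 libraries and -0.069 over 7, with Plin3 at -0.763 and -0.158, with Hilpda at 0.729 and 0.097, and with Pparg at 0.289 and -0.798. Lpl and Pparg showed little relation over 8 libraries (-0.024) or 7 (0.119).

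Other genes of the pathway, from 8 lists, also held no difference that passed. Of their 138 genes 72 were measured above the minimum, 36 with a value above 0 and 36 below, and 0 passed. Of the 72, 0 had labels without overlap, where 1.1% of all tested probes did. Without WT 4, 34 were above 0 and 38 below, and 26 of the 72 directions had turned. The median over the 72 log2 fold change was -0.002, beside -0.038 over 7982 genes, and it was -0.002 without WT 4 too.

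Genes that take up, bind and activate fatty acids gave 5 higher and 4 lower values of 9 measured, 0 past the threshold, with a median of 0.05, and 3 higher and 6 lower with a median of -0.003 without WT 4. Dbi, the acyl-CoA binding protein and the brightest of them, averaged 8801 ± 610 in the libraries labelled KO and 10142 ± 2671 in those labelled WT (SD, n = 4 each). Over 8 libraries the transporter gene Slc27a1 had the largest log2 fold change, 0.31 ± 0.23 (SE), and it was at 0.22 without WT 4. Without WT 4 the largest was that of Cd36, 0.43 ± 0.23 (SE), which was at 0.05 over 8 libraries. Cd36 read 512 in WT 4, with the other libraries between 152 and 358. Acsl4, an acyl-CoA synthetase, had the smallest over 8 libraries, -0.19, and was at -0.003 without WT 4. The dimmest, Slc27a4, was at 0.08, and -0.002 without WT 4. Partners of lipoprotein lipase and lipoprotein receptors gave 4 higher and 5 lower of 9, 0 past, with a median of -0.031, and 6 higher and 3 lower with a median of 0.015 without WT 4. Sort1, which encodes the sorting receptor sortilin, averaged 2444 ± 707 in the libraries labelled KO and 2654 ± 667 in those labelled WT (SD, n = 4 each), at a log2 fold change of -0.13, and 0.02 without WT 4. Sdc4, a syndecan, was at 0.81 ± 0.75 (SE). It stood at 82.1 in WT 4, with the other libraries between 255 and 1026, and without WT 4 it was at 0.08. The endocytic receptor gene Lrp1 was at -0.23, and 0.015 without WT 4. Apoc2, whose product activates the lipase, was the dimmest, at -0.031, and at 0 without WT 4.

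Enzymes of glycerolipid synthesis gave 4 higher and 6 lower of 10, 0 past, with a median of -0.04, and 6 higher and 4 lower with a median of 0.011 without WT 4. Gpat4, which starts the pathway from glycerol phosphate, averaged 1281 ± 124 in the libraries labelled KO and 1338 ± 112 in those labelled WT (SD, n = 4 each). Agpat1 was at 0.32 ± 0.26 (SE), and at 0.07 without WT 4. Lpin2, a phosphatidate phosphatase, was at -0.34 ± 0.33 (SE), and at -0.11 without WT 4. Plpp1, the dimmest, was at -0.06, and at 0.05 without WT 4. Droplet coat and assembly genes gave 9 higher and 4 lower of 13, 0 past, with a median of 0.05, and 6 higher and 7 lower with a median of -0.014 without WT 4. Bscl2, or seipin, needed for droplet formation, averaged 3030 ± 549 in the libraries labelled KO and 3118 ± 150 in those labelled WT (SD, n = 4 each). Nsdhl was at 0.38 ± 0.31 (SE), with 76.8 in WT 4 and 140 to 181 in the rest, and at 0.04 without WT 4. Pcyt1a was at -0.43 ± 0.54 (SE), and at -0.19 without WT 4. Vps13a, the dimmest, was at -0.16, and at -0.08 without WT 4. The further perilipin genes Plin1, Plin4 and Plin5 and the Cidec relatives Cidea and Cideb were under the minimum.

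Lipolysis and lipophagy genes gave 4 higher and 3 lower of 7, 0 past, with a median of 0.005, and 5 higher and 2 lower with a median of 0.09 without WT 4. Lipa, the lysosomal acid lipase, averaged 13520 ± 2579 in the libraries labelled KO and 14447 ± 3799 in those labelled WT (SD, n = 4 each), at a log2 fold change of -0.08, and 0.06 without WT 4. Pnpla7 was at 0.48 ± 0.28 (SE), and at 0.18 without WT 4. Abhd5, the coactivator of adipose triglyceride lipase, was at -0.14, and at -0.06 without WT 4. Pnpla6, the dimmest, was at 0.005, and at -0.07 without WT 4. Partners and coregulators of the PPAR receptors gave 2 higher and 6 lower of 8, 0 past, with a median of -0.09, and the same tally with a median of -0.04 without WT 4. Cebpb averaged 1578 ± 446 in the libraries labelled KO and 1459 ± 479 in those labelled WT (SD, n = 4 each). Cebpa, both the dimmest and the one with the largest value, was at 0.15, and -0.001 without WT 4, and the acetyltransferase gene Ep300 was at -0.39 ± 0.44 (SE), and at -0.11 without WT 4.

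Fatty acid oxidation genes gave 5 higher and 6 lower of 11, 0 past, with a median of -0.06, and 3 higher and 8 lower with a median of -0.02 without WT 4. Hadhb, a subunit of the mitochondrial trifunctional protein, averaged 2451 ± 355 in the libraries labelled KO and 2899 ± 1168 in those labelled WT (SD, n = 4 each), and its partner Hadha was the dimmest, at -0.06, and at -0.15 without WT 4. Etfdh was at 0.56 ± 0.42 (SE) and Decr1 at -0.35 ± 0.29 (SE), and without WT 4 these were at 0.09 and -0.041. Regulators of oxygen sensing gave 3 higher and 2 lower of 5, 0 past, with a median of 0.21, and the same tally with a median of 0.01 without WT 4. In WT 4 the list lay at a median of -0.80 relative to the other 7 libraries, beside 0.11 over all measured genes. Medians of the other lists ran from -0.12 to 0.43. Among its 5 genes only Vhl lay above 0, at 0.50. Arnt, the partner of the hypoxia-inducible factors, was at 0.60 ± 0.46 (SE), and at 0.08 without WT 4. It stood at 85.7 in WT 4 with the other libraries between 220 and 368. Hif1an averaged 312 ± 31.3 in the libraries labelled KO and 315 ± 41.3 in those labelled WT (SD, n = 4 each), and Egln2 and Vhl were at 0.21 and -0.10, and without WT 4 at 0.01 and 0.03.

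Adipocyte markers were near the array median, while some markers of the other cell type lists were above it. Of 11 adipocyte markers 9 were read and 0 lay above the minimum, with summed intensities of 739 to 769 in the libraries labelled KO and 747 to 848 in those labelled WT, where 9 probes at the array median would give 776. WT 4 had the highest sum, with Lep at 182. Of 10 endothelial markers, 2 were above the minimum, Vwf at 402 to 597 and Egfl7 at 80.6 to 109, with sums of 1208 to 1320 in the libraries labelled KO and 1153 to 1363 in those labelled WT. Pecam1 and Cdh5 read at most 92.0 and 97.2. Of 10 stromal markers, only Vcam1 was above the minimum, at 155 to 308. Of 7 monocyte markers, 5 were read and F13a1 and S100a4 lay above the minimum, with sums of 952 to 2401 in the libraries labelled KO and 615 to 1780 in those labelled WT, lowest in WT 4. Of 9 osteoclast markers, 4 were above the minimum, Ctsk at 514 to 758, Nfatc1 at 353 to 673, Dcstamp and Mmp9. Sums of the osteoclast list were 1586 to 1877 in the libraries labelled KO and 1601 to 2054 in those labelled WT. Of 10 neutrophil markers, S100a8 and S100a9 were above the minimum, and of 8 dendritic cell markers, Itgax and Batf3 were. The part of all these markers in the values of the members was not tested.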

How the data were processed

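RNA was isolated with Trizol, purified on columns, copied into biotin-labelled cRNA and measured on Illumina arrays, per the labels' protocols. The authors deposited 1 intensity value per probe and array, on a linear scale. These 8 columns have the same minimum, median and maximum, the mark of quantile normalization. The sources used here do not give how the background was handled or with which software. A further deposited table was set aside, since no label matches the names of its 16 per-sample columns.

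Members and lists were chosen with earlier results of these data known. Probes were named from the platform annotation, and each probe's gene identifier was looked up in RefSeq (GRCm38.p6). Of all probes, 34885 had 1 symbol, 18 several and 10378 none. Genes not annotated on the arrays were not analysed here.

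Intensities were corrected with normexp (offset 50) and log2-transformed. With this offset, fold changes of weak probes are understated. Probes at 100 or more on at least 4 arrays were kept. The labels were compared two-sided in limma 3.58.1 (lmFit, eBayes; R 4.3.3), with Benjamini-Hochberg adjustment over all kept probes and a threshold of 0.05. Printed intensities are the deposited values. A gene of a list is represented by its kept probe with the highest mean. Named from each list are its brightest and dimmest members and those with the largest and smallest fold change over 8 libraries. Cd36 was named besides, for its value without WT 4, and is not in the counts of named genes. The fit was tested on simulated data with the spread of the libraries other than WT 4 and a shift in every library labelled KO. It was not tested with a library like WT 4 or with libraries that go against their labels. Alternatives changed the offset, left out the background correction, and varied the intensity minimum, the variance estimate, array weights, the replicate block, repeated normalization, the threshold and the probe that represents a gene, and left out libraries. For arrays, their number limits the precision. Figures were drawn with matplotlib 3.10.9.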

Additional observations from a re-analysis of the deposited data

Results flagged for a closer look

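Among the 15 member probes, each label was examined for a library far from its other 3 by Dixon's test, which chance meets in about 1 of 20 groups, and 2 of 30 groups met it. Both concern the second Fabp5 probe, which lies under the intensity minimum. KO 2 read 82.7, against 75.7 to 76.3 in the other libraries labelled KO. WT 4 read 97.5, against 80.9 to 83.6 in the other libraries labelled WT. The stronger Fabp5 probe, at 5364, was also highest in WT 4.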

How the results depend on the processing

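No member probe passed under the 18 alternatives that give a count, and the count of passing probes was 0 in these except one: with KO 3 and KO 4 set against WT 1 and WT 2, chosen after the data were seen, 69 probes passed. The replicate number as a block left both counts at 0. Deviations of same-numbered libraries from their label means correlated at 0.463, -0.172, 0.137 and 0.131 for numbers 1 to 4. Libraries of different numbers gave -0.43 to 0.382. The label means rest on few libraries and include WT 4, so these values cannot decide whether the numbers pair the libraries. Leaving out each of the 8 libraries in turn left both counts at 0 (lowest 0, highest 0). Repeated normalization left every fold change as it was. Of 709 values computed under an alternative, for the members, the named genes and the counts, 58 turned in direction, with an adjusted p of at least 0.268 in limma for each of them.

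With KO 3 and KO 4 against WT 1 and WT 2, the turned log2 fold changes were -0.177 for Plin2, 0.171 for Plin3, 0.255 for Fabp5, and -0.595 and -0.146 for the Hilpda probes. Of the 72 list genes 32 turned, and among the 31 named from the lists, 15 did, at 0.118 (Bscl2), -0.622 (Cebpb), 0.040 (Dbi), -0.072 (Egln2), 0.091 (Gpat4), 0.304 (Hadhb), 0.134 (Lpin2), 0.089 (Lrp1), -0.050 (Pnpla6), -0.964 (Sdc4), -0.103 (Slc27a1), -0.049 (Slc27a4), 0.496 (Sort1), 0.085 (Vhl) and 0.003 (Vps13a). With array weights the turned values were -0.026 and -0.173 for Hilpda, 0.036 for Lipa, 0.009 for Lrp1, 0.015 for Plpp1 and -0.042 for Pnpla6. The cause was not tested.

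Leaving out 1 library at a time gave ranges that crossed 0 for the second Lpl probe (-0.025 to 0.158, turned without KO 4 or WT 2), Plin3 (-0.192 to 0.007), Fabp5 (-0.433 to 0.005), and Hilpda (-0.097 to 0.371, and -0.129 to 0.178 for the weaker probe, which also turned without KO 3). Apart from those named libraries, the member turns came without WT 4. Of the 72 list genes 38 turned without some library, and of the 31 named ones 15 did, with ranges for Apoc2 (-0.068 to 0.066), Bscl2 (-0.170 to 0.030), Cebpa (-0.001 to 0.268), Cebpb (-0.102 to 0.300), Hadha (-0.149 to 0.007), Hadhb (-0.348 to 0.072), Hif1an (-0.115 to 0.048), Lipa (-0.265 to 0.063), Lrp1 (-0.422 to 0.015), Pcyt1a (-0.824 to 0.017), Plpp1 (-0.140 to 0.050), Pnpla6 (-0.071 to 0.090), Slc27a4 (-0.002 to 0.216), Sort1 (-0.287 to 0.020) and Vhl (-0.235 to 0.033). Signal over background limits Fabp4, Cidec, Dgat1 and Dgat2, whose values lie near the array median.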
